A study of Mus musculus with 7 samples.

Results

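Cathepsins are the proteases of lysosomes and of the lysosome-like granules of killer T cells, and cystatin F, encoded by Cst7, is a cystatin that is delivered into the same compartments and restrains some of them. The 10 genes Ctsa, Ctsb, Ctsc, Ctsd, Ctsh, Ctsl, Ctss, Ctsw, Ctsz and Cst7 were taken by name from the 53656 gene rows of a mouse RNA-seq series. All 10 passed the filter on low counts with which 15896 genes were tested. The cells were OT1 cells, CD8 T cells whose transgenic receptor recognises an ovalbumin peptide, sorted on CD8 and the congenic marker CD45.1. They came from B16-OVA-GP61 tumours, a mouse melanoma line carrying ovalbumin and the GP61 epitope that is seen by SMARTA CD4 T cells. In 4 libraries no SMARTA CD4 T cells were present and in 3 libraries they were. The labels as given here state no strain, age or time point. They also leave unsaid whether each library is from its own mouse, so every p-value below is measured against library-to-library spread that may be partly technical. Of the 10 genes Ctsw rose with SMARTA, by 1.75-fold, and the 9 others did not pass the test, where 3.15% of all genes tested were called. The Ctsw call was marginal: it was lost in each fit that left out 1 library and in other settings given below.

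Cathepsins are made as inactive proenzymes and are switched on by cleavage in acidic compartments. In cytotoxic T cells cathepsin C removes a short propeptide from granzymes and so activates them, while cystatin F blocks cathepsin C, H and L and thereby can limit granzyme activation. Cathepsin W is a papain-like protease made mainly by CD8 T cells and NK cells. Cathepsins B, L, S, H and Z are cysteine proteases of many cell types, abundant in macrophages and other antigen-presenting cells. Cathepsin D is an aspartic and cathepsin A a serine protease of the lysosome.

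The stretch of coding sequence around the catalytic cysteine shows what the cysteine proteases share and where their letters differ. The search ran in frame through the coding sequence of the principal transcripts (GENCODE M21, GRCm38) for 8 codons in a row of which the first starts with CA, the fourth and the seventh with TG and the eighth with T. In papain-type proteases these hold the active-site glutamine, a paired cysteine and the catalytic cysteine. It matched 1.41% of 21985 genes and 6 of the 10 genes described here, once in each. Ctsz, Ctsa, Ctsd and Cst7 had no match, which says only that these letters are not there. The codon of the catalytic cysteine is in capitals:
Ctsw: cagggaagctgcaaatgcTGCtgg
Ctsb: cagggctcctgcggctctTGTtgg
Ctsl: cagggccagtgcgggtctTGTtgg
Ctsh: cagggggcctgtggcagcTGCtgg
Ctss: cagggttcttgtggtgccTGCtgg
Ctsc: caagaatcttgtggaagcTGCtac
The capital codon is number 151 in Ctsw, 108 in Ctsb, 138 in Ctsl, 139 in Ctsh, 147 in Ctss and 257 in Ctsc, counted from the start codon. Of the 24 bases Ctsb and Ctsl shared 20, the most of any pair, and Ctsc and Ctsl 10, the fewest. Ctsw shared 13 to 16 with each of the others, and Ctsc 10 to 16. The codon that follows the paired cysteine starts with gg in Ctsb, Ctsl, Ctsh, Ctss and Ctsc and is aaa in Ctsw. Ctsc alone starts with caaga and ends with tac, where the others start with caggg and end with tgg. All stretches are exonic coding sequence. That of Ctsb lies within 1 exon, at chr14:63135699-63135722 on the plus strand. An intron interrupts the others, which lie at chr19:5466465-5466583 (Ctsw, minus strand), chr13:64367072-64367862 (Ctsl, minus strand), chr9:90064255-90064527 (Ctsh, plus strand), chr3:95543160-95545353 (Ctss, plus strand) and chr7:88302297-88308032 (Ctsc, plus strand).

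The sorted cells had the transcripts of CD8 T cells: 10 receptor, coreceptor and signalling genes summed to between 11341 and 14908 CPM (counts scaled by the library total) in the 7 libraries. Libraries held from 38092722 to 49438357 counts, and a count of 0 allows a level of up to 0.0607 to 0.0788 CPM (3 counts, counting error only). The libraries were not free of transcripts of other cells. Markers of red blood cells (7 genes) had sums of 36.7 to 223 CPM in the group without SMARTA, while the 3 libraries with SMARTA had 4829 (replicate 1), 9.72 (replicate 2) and 214 CPM (replicate 3). The macrophage and monocyte list (14 genes) summed to 192 to 322 and to 49.6 to 239 CPM. Most of this difference was Cx3cr1, a chemokine receptor that effector T cells also carry, and the 13 others had sums of 73.2 to 188 CPM in the group without SMARTA, against 224 (replicate 1), 28.1 (replicate 2) and 19.7 CPM (replicate 3) in the group with it. Dendritic cell (62.0 to 224 against 146 to 436 CPM), B cell (10.4 to 38.8 against 11.3 to 60.1), neutrophil (6.15 to 63.5 against 7.30 to 12.8), NK cell (30.1 to 90.3 against 14.2 to 112), melanoma (31.7 to 122 against 57.2 to 125) and fibroblast (0.802 to 46.4 against 8.77 to 41.3) lists overlapped between the groups. The CD4 and regulatory T cell list (39.7 to 96.2 against 120 to 140.3 CPM) and the endothelial list (82.5 to 117 against 137 to 186 CPM) did not overlap, with p = 0.0286 each, the smallest value the two-sided exact permutation test allows with 4 and 3 libraries, and an adjusted p of 0.157 over the 11 lists. The CD4 list's difference was mostly Cd40lg, which activated CD8 T cells can also make (26.2 to 68.1 against 88.1 to 101 CPM). Without it the sums overlapped (13.5 to 40.4 against 27.0 to 51.4 CPM). Of its other genes Zbtb7b did not overlap (7.96 to 22.7 against 23.1 to 43.3 CPM), while Cd4 (0.659 to 7.31 against 2.05 to 8.09) and Foxp3 (0.638 to 12.0 against 0 to 1.84) did. The endothelial sum was nearly all Pecam1, without which it lay under 3 CPM in every library. In the dendritic cell, NK cell and melanoma lists the largest genes were Itgax, Klrb1c and Gpnmb. Without Itgax the dendritic cell sums were 21.7 to 37.4 against 18.5 to 34.6 CPM. Without Klrb1c the NK cell sums were 4.89 to 8.36 against 0.735 to 11.6 CPM. Without Gpnmb the melanoma sums were 6.80 to 67.9 against 6.68 to 9.08 CPM. In bulk samples fewer cells of a type and less RNA per cell cannot be told apart.

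Levels of different genes were compared as TPM (counts per kilobase of exon, scaled to the same sum in every library). Ctsw had the highest level of the 10 genes in all 7 libraries, and by mean TPM it ranked 21 among all genes without and 9 with SMARTA. Without SMARTA it was at 3336, 3500.4, 2957 and 3200.5 TPM, and with SMARTA at 5689, 4474 and 5494 TPM in replicate order. Ctsd followed with 1372 to 2047 TPM without and 1681 to 2741 TPM with SMARTA, and Cst7 with 879 to 1159 and 650 to 1067 TPM. Without SMARTA the levels of Ctsw, Ctsd, Cst7 and Ctsb (327 to 515 TPM) did not overlap with each other. Ctsb overlapped with Ctss (234.5 to 349 TPM) and Ctss with Ctsa (256 to 320 TPM), so the order of these neighbours is not set beyond their spread. Ctsc (158 to 246 TPM) and Ctsz (97.1 to 164 TPM) came next and also overlapped. Replicate 1 of Ctsc (246 TPM) overlapped with Ctss as well. With SMARTA Ctsa (306 to 538 TPM), Ctss (271 to 471 TPM) and Ctsb (268 to 307 TPM) overlapped, and so did Ctsc (130 to 205 TPM) and Ctsz (97.0 to 217 TPM). Ctsl and Ctsh were lowest in every library, at 1.51 to 5.83 and 0.787 to 9.50 TPM over all 7.

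**Figure D1:**
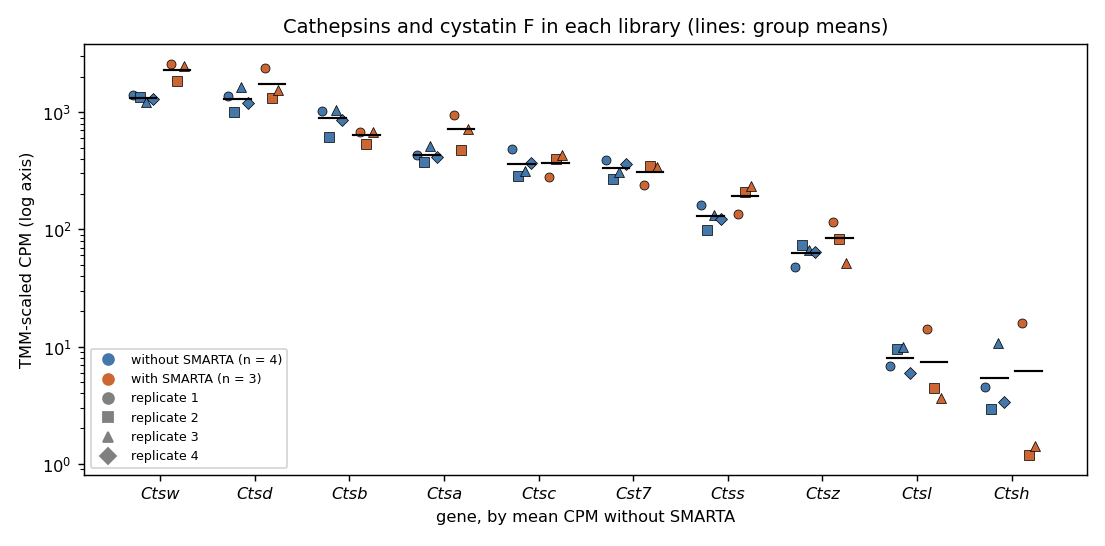
TMM-scaled CPM (log axis) of the 10 genes in each of 4 libraries without and 3 with SMARTA, points by replicate and lines at group means. Ctsw is the only gene whose groups do not overlap (1233 to 1405 against 1838 to 2604 CPM), and Ctsh and Ctsl are the lowest and most scattered.

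Ctsw, on the minus strand of chromosome 19 from 5465240 to 5468498 (GRCm38.p6), was the 1 gene of the 10 that rose with SMARTA. Without SMARTA its level was 1405, 1339, 1233 and 1299 CPM, and with SMARTA 2604, 1838 and 2498 CPM, scaled by TMM as are the CPM of single genes from here on. All 3 libraries with SMARTA were above the 4 others, and replicate 2 was the lowest of the 3. The means were 1319 ± 72.3 (SD, n = 4) and 2313 ± 415 CPM (SD, n = 3), a 1.75-fold difference and a log2 fold change of 0.81 ± 0.17 (SE), with an adjusted p of 0.0424 in edgeR's quasi-likelihood test. One called gene of 10 stands against 3.15% of all genes tested called in either direction, 1.52% called higher and 1.63% called lower. One gene of 10 without overlap stands against 19.2% of all genes, so the share of non-overlapping members was near the background. The call was marginal. It was lost in each of the 7 fits that leave out 1 library (log2 fold change 0.69 to 0.95, edgeR adjusted p from 0.0505 to 0.144), with upper quartile scaling (0.79, adjusted p = 0.0638) and with library totals (0.65, adjusted p = 0.0634), while the direction stayed the same in all of these. The share of all genes called moved with these settings too: it was 3.34% with relative log expression scaling and with upper quartile scaling, 3.53% with library totals, 1.9% with no filter, 8.97% with a stricter filter, 11% with DESeq2, 3.33% with limma-voom and 3.21% without robust estimation. It was 0.423, 2.56, 0.639 and 0.11% without replicate 1, 2, 3 or 4 of the group lacking SMARTA, and 5.41, 0.217 and 0.312% without replicate 1, 2 or 3 of the group with it.

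No exon base of Ctsw is shared with another annotated gene, so its counts (60663 to 122822 a library) do not depend on how overlaps were treated. The genes whose log2 CPM followed that of Ctsw most closely over the 7 libraries, among 7887 named genes averaging 3 or more log2 CPM, were Rab8a, Ikbke, Galt, Klk8 and Bckdha, with Pearson correlations of 0.99, 0.99, 0.99, 0.99 and 0.98. These are descriptions over libraries that include both groups. Genes chosen for following Ctsw will tend to differ between the groups as Ctsw does. Their group values and p-values below are therefore no separate result. Rab8a, a small GTPase of membrane transport, rose from 686 ± 39.4 to 1152 ± 168 CPM (edgeR adjusted p = 0.0461). Ikbke, a kinase of innate immune signalling, rose from 115 ± 7.82 to 205 ± 34.9 CPM (edgeR adjusted p = 0.0461). Galt, an enzyme of galactose metabolism, the serine protease Klk8 and Bckdha, of branched-chain amino acid breakdown, did not pass (edgeR adjusted p = 0.113, 0.0645 and 0.123).

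**Figure D2:**
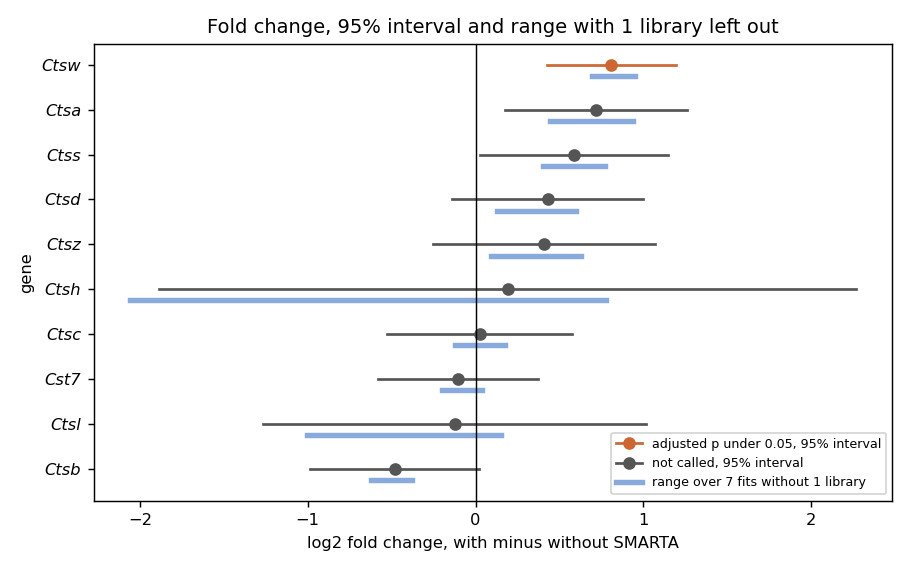
Log2 fold change with minus without SMARTA of each gene with its 95% interval, and below it the range over the 7 fits that each leave out 1 library. The interval of Ctsw runs from 0.43 to 1.19 and that of Ctsh from -1.89 to 2.27.

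Cystatin F and its target cathepsin C were not called different. Cst7, on chromosome 2 from 150570415 to 150578944, was at 391, 269, 309 and 363 CPM without SMARTA and at 238, 351 and 339.7 CPM with SMARTA. The groups overlapped, and replicate 1 with SMARTA had the lowest level of all 7. The log2 fold change was -0.10 with a 95% interval from -0.58 to 0.37 (edgeR adjusted p = 0.849), so a fall or rise within this interval is not excluded. Ctsc, the activator of granzymes on chromosome 7 from 88278085 to 88310888, was at 489, 286, 314 and 370.1 CPM without and 280.5, 397 and 435 CPM with SMARTA. Its log2 fold change was 0.03 (95% interval -0.53 to 0.58; edgeR adjusted p = 0.972), and its sign changed with the scaling (-0.0086 with upper quartile scaling and -0.13 with library totals). In both genes replicate 1 was the highest of the libraries without SMARTA and the lowest of those with it.

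The ratio of inhibitor to protease transcripts does not depend on the scaling between libraries. On the TPM scale Cst7 exceeded Ctsc by 2.23, 2.47, 2.54 and 2.53 log2 units without SMARTA and by 2.32, 2.38 and 2.20 with SMARTA. This narrow range held in all 7 libraries, and the group means differed by -0.14, with overlap. Against Ctsw, Cst7 was lower in every library, by -1.53, -1.99, -1.68 and -1.52 log2 units without and -3.13, -2.07 and -2.56 with SMARTA. These values did not overlap, though replicate 2 with SMARTA (-2.07) lay next to replicate 2 without (-1.99), and the means differed by -0.91. This is not separate from the rise of Ctsw (log2 fold change 0.81), since that of Cst7 was -0.10. Cathepsin W is also not among the targets of cystatin F named above. Cst7 to Ctsl and Cst7 to Ctsh ratios overlapped, with mean log2 ratios of 8.11 ± 0.58 and 8.33 ± 0.88 (SD, n = 4) without and 8.36 ± 1.36 and 8.87 ± 2.41 (SD, n = 3) with SMARTA.

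Among the cysteine cathepsins of many cell types, Ctsb had a lower and Ctss and Ctsz a higher mean with SMARTA, and none passed. Ctsb, an endopeptidase encoded on chromosome 14 from 63122462 to 63145923, was at 1024, 615, 1054 and 856 CPM without and at 681, 541 and 685 CPM with SMARTA. Replicate 2 without SMARTA lay among the libraries with SMARTA, and the 3 others were above them. Its log2 fold change was -0.48 ± 0.22 (SE, 95% interval -0.98 to 0.02, edgeR adjusted p = 0.292), and it was negative under all 16 alternatives. Ctsa, Ctsd, Ctss and Ctsz also kept their signs under all 16, and the alternatives reuse the same libraries. Ctss, which trims the invariant chain in antigen-presenting cells, lies on chromosome 3 from 95526786 to 95556403. It was at 162, 98.9, 132 and 123 CPM without and at 137, 208 and 236 CPM with SMARTA, so that replicates 2 and 3 with SMARTA were above all others and replicate 1 was not. Its log2 fold change was 0.59 ± 0.25 (SE; edgeR adjusted p = 0.247; unadjusted p = 0.0421). Ctsz, a carboxypeptidase encoded on chromosome 2 from 174427493 to 174439039, was at 47.8, 73.5, 67.2 and 63.8 CPM without and at 116, 83.4 and 51.6 CPM with SMARTA, and its log2 fold change of 0.41 ± 0.29 (SE) had an edgeR adjusted p of 0.517. That of Ctsz was 0.09 without replicate 1 and 0.63 without replicate 3 with SMARTA, and 0.25 without replicate 1 of the other group.

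The promoter of Ctss, a gene known to respond to interferon, is shown because it carries GAAA, any 2 bases and GAAA again, the core of the element that interferon-activated factors bind. RefSeq promoter windows (GRCm38.p6, 250 bases before to 50 after a start site) were matched for 7 of the 10 genes, in 8 windows. Those of Ctsb, Ctsh and Ctsw were not matched. These letters, on either strand, was in 3.44% of all 32851 windows and, of the 8, in that of Ctss alone. The match, in capitals, lies 21 to 12 bases before the start site on the plus strand of chr3:95526536-95526785:
Ctss: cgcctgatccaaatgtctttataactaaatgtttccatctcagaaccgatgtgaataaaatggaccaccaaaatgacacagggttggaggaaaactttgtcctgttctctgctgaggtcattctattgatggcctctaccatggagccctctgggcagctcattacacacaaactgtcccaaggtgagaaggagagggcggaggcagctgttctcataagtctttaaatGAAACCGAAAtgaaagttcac
A match is a description of letters and not of binding.

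As a share of the transcripts of the 9 cathepsins in a library (TPM), a measure chosen after the values were seen, Ctsb took up 7.58, 5.44, 8.00 and 7.10% without SMARTA and 3.06, 3.54 and 3.50% with SMARTA. These shares did not overlap. Ctsw took up 51.1, 58.1, 46.0 and 53.0% without and 57.4, 59.1 and 62.6% with SMARTA, with replicate 2 without SMARTA above replicate 1 with it. Shares sum to a whole, so a higher Ctsw lowers the share of every other gene. The share of Ctsd was 22.8 to 31.8% and 20.4 to 27.7%. The sum of the 9 was 6020 to 6526 TPM without and 7570 to 9904 TPM with SMARTA, and most of the difference in the means (6255 and 8748 TPM) was Ctsw (3248 and 5219 TPM).

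**Figure D3:**
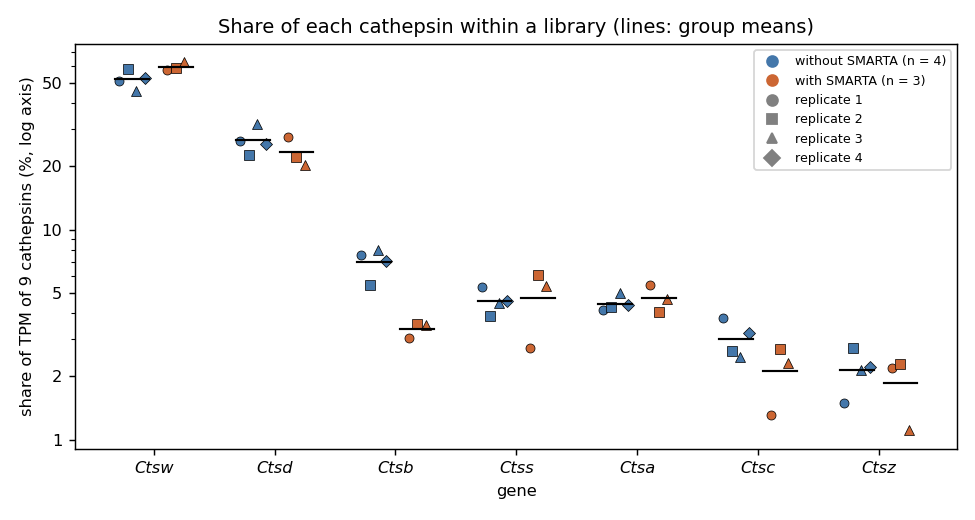
Share (%, log axis) of each of 7 cathepsins in the summed TPM of 9 cathepsins, by library, with lines at group means; Ctsh and Ctsl, under 0.2% each, are not drawn. The shares of Ctsb do not overlap between groups (5.44 to 8.00% against 3.06 to 3.54%), while those of Ctsw do.

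Ctsh and Ctsl were the low members of the set and their values turned on a single library. Ctsh, an aminopeptidase encoded on chromosome 9 from 90054152 to 90076089, was at 4.50, 2.91, 10.8 and 3.38 CPM without and 15.9, 1.18 and 1.41 CPM with SMARTA. Ctsl, on chromosome 13 from 64359337 to 64370890, was at 6.77, 9.48, 10.0 and 5.93 CPM without and 14.1, 4.46 and 3.62 CPM with SMARTA. In both genes replicate 1 with SMARTA was the highest of all libraries and the other two with SMARTA were the lowest of all. With all libraries the log2 fold changes were 0.19 ± 0.91 and -0.12 ± 0.50 (SE; edgeR adjusted p = 0.943 and 0.932). Without replicate 1 with SMARTA they were -2.06 ± 0.63 for Ctsh and -1.0 for Ctsl, and neither passed (edgeR adjusted p = 0.103 and 0.168). That library also had the highest erythroid and B cell marker sums and, among those with SMARTA, the highest macrophage sum, as given above. Genes of MHC class II presentation, used by macrophages, dendritic cells and B cells, summed to 620, 243, 522 and 287 CPM without and 657, 256 and 177 CPM with SMARTA, with replicate 1 again highest. The B cell list summed to 11.4, 10.4, 38.8 and 31.4 CPM and to 60.1, 13.2 and 11.3 CPM. Of the 14 macrophage and monocyte genes 10 were highest of all 7 libraries in replicate 1 with SMARTA and 4 (Cd14, Fcgr1, Mpeg1 and Cx3cr1) were not. Csf1r, the defining receptor of macrophages, was at 11.7, 9.72, 5.13 and 3.56 CPM without and 21.7, 1.27 and 0.0525 CPM with SMARTA, where Adgre1 was at 0 in replicate 3. Cd14 was at 9.79, 33.7, 3.07 and 2.38 CPM without and 0.526, 0.141 and 6.20 CPM with SMARTA. The part of these cells in the values of Ctsh and Ctsl was not tested.

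**Figure D4:**
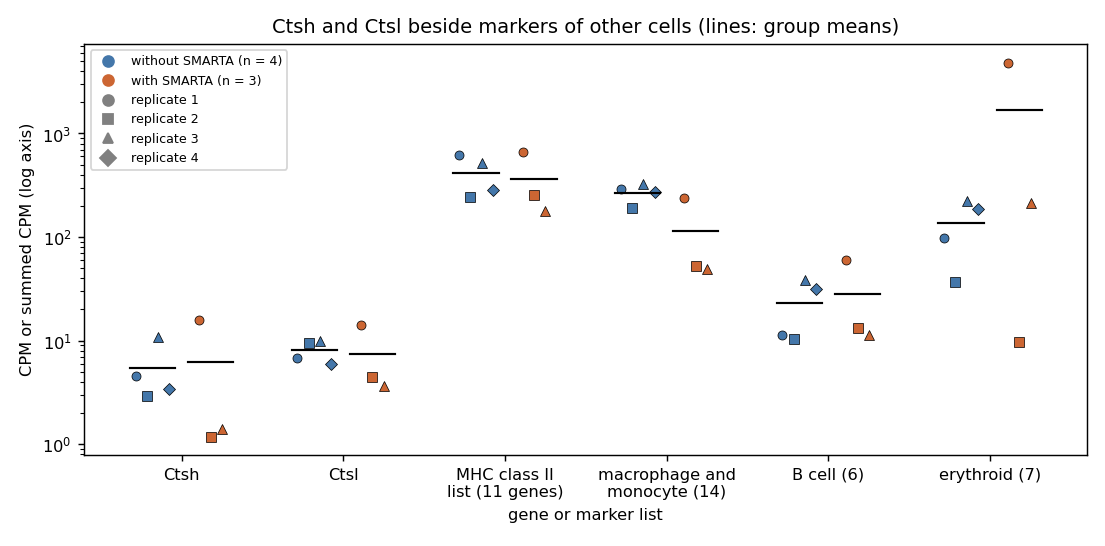
Ctsh and Ctsl (TMM-scaled CPM) beside the summed CPM of MHC class II genes and of macrophage, B cell and erythroid markers (log axis), by library, with lines at group means. Replicate 1 with SMARTA (orange circle) is the highest library for Ctsh (15.9 CPM), Ctsl (14.1 CPM), the MHC class II sum (657 CPM) and the B cell and erythroid sums.

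The lysosomal proteases that are not cysteine proteases, cathepsins A and D, had higher means with SMARTA and did not pass. Ctsa, which also stabilises the lysosomal enzymes encoded by Neu1 and Glb1, was at 435, 375, 510.1 and 412 CPM without and 942, 481 and 715 CPM with SMARTA. Only replicate 2 with SMARTA overlapped with the other group, lying under replicate 3 without SMARTA. Its log2 fold change was 0.72 ± 0.24 (SE; 95% interval 0.18 to 1.26; edgeR adjusted p = 0.15; unadjusted p = 0.0153). Ctsd was at 1387, 1002, 1629 and 1192 CPM without and 2395, 1317 and 1550.3 CPM with SMARTA. Its log2 fold change was 0.43 ± 0.25 (SE; edgeR adjusted p = 0.419). Replicate 1 with SMARTA was the highest library for both, and without it the log2 fold changes were 0.45 for Ctsa and 0.13 for Ctsd. Ctsa lies on chromosome 2 from 164832873 to 164841032 and shares 17.4% of its exon bases with the opposite-strand genes Pltp and Neurl2. Ctsd lies on chromosome 7 from 142375911 to 142388038 and shares 34.4% with a gene model on its own strand. Read pairs that match both genes are left out by default, so the levels of both are uncertain. Other genes share 12.8% of the exon bases of Ctsb (Fdft1), 26.8% of those of Ctsl and 0.694% of those of Ctsz (Nelfcd).

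The promoter window of Ctsd and 1 of the 2 windows of Ctsa hold TCACGTGA, the core of the element through which the transcription factor TFEB and its relatives drive lysosomal genes. The other Ctsa window, at the start of the gene as annotated, has neither these letters nor CACGTG. TCACGTGA was in 0.974% of all 32851 windows. The shorter CACGTG that it contains was in 7.15% of them, and among the windows matched here in those of Ctsa, Ctsd and Ctsl. The stretch around each is printed, with the matches in capitals:
Ctsa: tgTCACGTGAtgcagatgcTCACGTGAcc
Ctsd: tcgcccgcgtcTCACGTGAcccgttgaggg
They lie at chr2:164833758-164833786 on the plus strand, where the pair of matches flanks a RefSeq start site, and at chr7:142387908-142387937 on the minus strand. Both stretches are inside the genes as annotated in the count files, in part or whole in exon bases, and not upstream of them. These matches say nothing of binding in these cells.

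Of the rest of the pathway, 128 genes in 11 lists were tested and none was called by edgeR, with 29 at an unadjusted p under 0.05 (22.7%, against 18.6% of all genes tested). DESeq2 called 21 of them (16.4%, against 11% of all genes) and limma-voom 2 (1.56%, against 3.33%). Groups did not overlap in 30 of the 128 (23.4%, against 19.2% of all genes). Other cathepsins had 4 tested genes, all with a positive log2 fold change and a median of 0.66, where the median over all genes tested was 0.00. Of these, Ctsf (0.158 and 0.318 CPM) and Ctsk (0.328 and 0.427 CPM) had very low means. Their log2 fold changes, 0.98 ± 1.71 and 0.38 ± 1.62 (SE), do not set a sign. Ctse, an aspartic protease of endosomes, was at 468, 391, 471 and 441 CPM without and 851, 602 and 887 CPM with SMARTA, without overlap, and just missed the threshold (0.82 ± 0.18, SE; edgeR adjusted p = 0.0517). As for Ctsw, replicate 2 was the lowest library with SMARTA. Ctso was at 61.4 ± 8.13 and 87.03 ± 9.42 CPM (edgeR adjusted p = 0.202). The other cystatins with enough counts, Cst3, Cst6 and Cstb, had negative log2 fold changes (median -0.32). Cst3, the secreted cystatin C, was at 135 ± 18.8 and 108 ± 48.8 CPM (edgeR adjusted p = 0.629), and Cst6 at 1.05 ± 0.452 and 0.477 ± 0.122 CPM (edgeR adjusted p = 0.356).

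Lysosomal glycosidases and lipid hydrolases had a positive log2 fold change in 22 of 27 tested genes, with a median of 0.38, and 9 had no overlap, all higher with SMARTA (8.73% of all genes were). Npc2, which carries cholesterol out of the lysosome, was at 255 ± 23.4 and 433 ± 68.8 CPM (edgeR adjusted p = 0.0538). Among 12 lysosomal membrane proteins the median was 0.27. Laptm5, which targets T cell receptor chains for degradation, was at 2755 ± 348 and 4939 ± 1043 CPM, and the cystine exporter Ctns at 26.2 ± 3.85 and 50.8 ± 6.05 CPM, both with an edgeR adjusted p of 0.0504. Vacuolar ATPase subunits, which acidify the lysosome, had a median of 0.20 over 17 genes, and Atp6v0d1 and Atp6ap1 had the smallest p (edgeR adjusted p = 0.219 and 0.295). Of 8 other lysosomal peptidases 4 had positive and 4 negative log2 fold changes. Napsa was at 72.1 ± 20.1 and 40.4 ± 3.31 CPM (edgeR adjusted p = 0.116), and Dpp7 at 25.5 ± 2.83 and 34.5 ± 3.16 CPM (edgeR adjusted p = 0.312). The means of named genes in the lists are over 4 libraries without and 3 with SMARTA.

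Of 18 genes that sort enzymes to the lysosome, 11 had a positive and 7 a negative log2 fold change, with a median of 0.18. Gnptab, which makes the mannose phosphate tag of lysosomal enzymes, was at 74.2 ± 17.02 and 31.8 ± 10.5 CPM (edgeR adjusted p = 0.0639), and the sorting receptor Sorl1 at 143 ± 34.5 and 268 ± 27.3 CPM (edgeR adjusted p = 0.0617), both without overlap. Among 13 genes of the TFEB family and its regulators the median was 0.18. Fnip2 was at 2.31 ± 0.995 and 0.114 ± 0.173 CPM (edgeR adjusted p = 0.086), and its partner Flcn at 99.7 ± 26.7 and 185 ± 24.5 CPM (edgeR adjusted p = 0.0998).

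Among granzymes, which cathepsin C activates, and their granule partners, 9 of 11 tested genes had a negative log2 fold change and the median was -1.0. Prf1, the pore-forming perforin, was at 795 ± 316 and 319.5 ± 99.6 CPM (edgeR adjusted p = 0.0794), and Gzme at 6.58 ± 3.28 and 0.295 ± 0.256 CPM (edgeR adjusted p = 0.0597). Gzme has close paralogs, and how the counting divided their reads was not tested, so its level is uncertain. A list of 8 genes linked by name to cystatin F and cytotoxic gene control (C/EBP genes, T-bet and Eomes) had 4 tested genes with a median of -0.10. These were Cebpg, Tbx21 (T-bet), Eomes and Cebpz, which is in the list by its name only. Cebpa, Cebpb, Cebpd and Cebpe did not pass the filter on low counts, so the median does not describe them. Eomes was at 7.79 ± 6.45 and 3.10 ± 1.76 CPM (edgeR adjusted p = 0.336) and Cebpg at 12.4 ± 1.48 and 11.1 ± 4.91 CPM (edgeR adjusted p = 0.866). MHC class II presentation genes had a median of 0.16 over 11, and Ifi30, a lysosomal thiol reductase, was at 24.04 ± 5.94 and 15.8 ± 3.54 CPM (edgeR adjusted p = 0.31) and H2-Ob at 6.79 ± 2.41 and 11.5 ± 6.83 CPM (edgeR adjusted p = 0.426).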

How the data were processed

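The deposited values are raw counts of read pairs for each gene name, 1 file a library. Per the file headers, the authors counted with featureCounts 1.6.2 on GENCODE M17 (GRCm38.p6), without strand and with default treatment of reads that match several genes, which leaves them out. STAR 2.6.0c is named in the submitters' processing notes. Per the labels' protocols, RNA of sorted cells was amplified with a SMART-seq kit, which does not mark strand.

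Libraries were grouped by their titles. Counts were tested with edgeR 4.0.16 (R 4.3.3): filterByExpr (minimum count 10, minimum total 15), TMM scaling, robust quasi-likelihood fit of all 7 libraries, two-sided, Benjamini-Hochberg adjustment over 15896 genes, called under 0.05. Fold changes are with minus without SMARTA; intervals are 95%, from the residual degrees of freedom. CPM of single genes are TMM-scaled, those of summed lists are per library total, and log2 CPM used a prior count of 2. TPM used the exon length in the files. Marker sums were compared by exact permutation over 35 splits.

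The genes named are the 10 members, of each other list up to 4 called genes or else the 2 of smallest p, and the 5 genes most like the called member, except that 1 gene of the lists is not reported here; the marker genes and Cstb were added after their values were seen. Members and lists were chosen with earlier results of these data known. Alternatives were other scalings and filters, DESeq2 1.42.0, limma-voom (limma 3.58.1), no robust estimation, a replicate block and each library left out.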

Additional observations from a re-analysis of the deposited data

Results flagged for a closer look

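Of 25 values checked for a library far from the 3 others without SMARTA (10 genes, 11 marker sums and 4 ratios), 2 stood out by the gap to the nearest library over the whole range (Dixon's test), where chance flags about 1 in 20 groups. The log2 ratio of Cst7 to Ctsh was 7.03 in replicate 3 without SMARTA and 8.63, 8.72 and 8.94 in the others (a gap of 0.839 of the range). Ctsh was at 10.8 CPM there, and the macrophage and B cell sums were the highest of that group (322 and 38.8 CPM). The melanoma marker sum was 122 CPM in replicate 2 without SMARTA and 31.7 to 43.2 CPM in the others (a gap of 0.873 of the range). Ctsa, Ctsb, Ctsc, Ctsd, Ctsh, Ctss and Cst7 had their lowest value of that group in this library. The part of tumour cell RNA in these values was not tested.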

How the results depend on the processing

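Ctsw kept a positive log2 fold change in all 16 alternatives and was called in 6 of them. It was not called with upper quartile scaling (0.79), library totals (0.65), the replicate block (0.79, adjusted p = 0.373) or any 1 library left out (0.69 to 0.95). Of the 10 genes, 0 were called in those fits and 1, Ctsw, in the 6 others. None of the 9 other genes was called in the alternatives that gave it a value, which were 16 for 8 of them and 14 for Ctsh (no value with the stricter filter or DESeq2). The number of all genes called was 500, and 842 with a stricter filter (3 or more libraries at 5 CPM), 1741 with DESeq2, 0 with the replicate block (edgeR; 1631 at an unadjusted p under 0.05) and 17 to 907 with 1 library left out: 65, 398, 98 and 17 without replicates 1 to 4 lacking SMARTA, and 907, 37 and 53 without replicates 1 to 3 with SMARTA. Of the genes of other lists 0 were called, and 2 with relative log expression scaling, 1 with upper quartile scaling, 2 with library totals, 3 with no filter, 7 with the stricter filter, 21 with DESeq2, 2 with limma-voom, 1 without robust estimation and 0 to 3 with 1 library left out. Library totals moved the median of all genes to -0.16.

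Signs turned for members near 0. Ctsc was at -0.0086 with upper quartile scaling, -0.13 with library totals, -0.069 with the stricter filter and -0.12 to 0.17 with 1 library left out. Ctsh was at -0.57 with limma-voom, -0.89 with the replicate block and -2.06 to 0.78 with 1 library left out. Ctsl ranged from -1.0 to 0.15 and Cst7 from -0.20 to 0.038 with 1 library left out. Of marker sums (with minus without), NK cell turned to 3.09 CPM with TMM scaling, and dendritic cell to -0.869 and melanoma to -19.1 CPM without their largest gene. With 1 library left out differences of both signs were found for NK cell (-33.8 to 15.3), fibroblast (-7.29 to 11.9), B cell (-10.8 to 13.7) and erythroid sums (-24.2 to 2386 CPM). By mean TPM the order of the 10 genes was the same as TMM-scaled RPKM; with the length of bases not shared with other genes, chosen after seeing the data, Ctsl (4.78) passed Ctsh (3.65) and Ctsd was at 2806 in place of 1842 TPM.

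Replicate numbers in the titles showed no clear pairing: same-numbered libraries had correlations of deviations of -0.139, 0.0263 and -0.274. Libraries with unlike numbers had -0.0862 to 0.254. No test was made of these values, so a pairing by number is not excluded and the loss of calls under the block stands as a limit. The log2 fold change of Ctsw under the block was 0.79. Libraries of a group differed from each other well past counting error (93.5 to 444 as chi-square over its degrees of freedom). The smallest counts of the 10 genes were those of Ctsh (48 to 749) and Ctsl (123 to 663).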
